A study of Mus musculus with 6 samples.

Results

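Stretches of the genome that carried 5-hydroxymethylcytosine (5hmC) in every library of a Tet2 flox and Tet2 KO comparison, and that lay at the border of a protein-coding gene, are described here. The authors' peak lists of 4 libraries were pooled, and peaks sharing 1 bp or more were merged into 174070 regions. Of these, 171780 were autosomal and 68363 of them were called in all 4 libraries. A region was kept when it was under 2500 bp wide and its midpoint lay within 1 kb of either border of a RefSeq protein-coding gene. This left 2231 regions, called constant gene-border regions below. Their choice rests on the calls themselves, so they were selected on the peak calls of all 4 libraries, and their being called there is no result.

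5hmC is made when TET enzymes oxidise 5-methylcytosine, and it is both a step towards the removal of DNA methylation and a base that persists. In blood cells Tet2 is a main enzyme of this family and a frequent target of loss in myeloid disease. Around genes, 5hmC is known to be found in the bodies of active genes and on the flanks of promoters, while the centres of CpG-rich promoters of active genes mostly lack methylation and with it the substrate of TET enzymes.

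The cells came from bone marrow of Tet2fl/fl;CreER mice (C57BL/6), enriched for Kit and transduced with the retroviral vector MigR1-AE-IRES-GFP, which carries the leukaemia fusion AML1-ETO, so that all groups carry both the floxed gene with CreER and the fusion. Flox cultures (label Tet2fl/fl, 2 libraries) were given ethanol, and KO cultures (label Tet2-/-, 2 libraries) were given 200 nM 4-OHT, which activates CreER, for 2 passages (4 days). Cells positive for GFP and CD16/32 and negative for CD11b and Gr1 were sorted at passage 5, after growth with SCF, IL-3 and IL-6, and DNA fragments bound by a rabbit antibody to 5hmC were sequenced. The comparison asks how the loss of Tet2 changes where 5hmC is found. Only KO cultures received the drug, so effects of drug or Cre and loss of Tet2 cannot be told apart. The labels do not say that replicates were separate cultures, so tests measure only the spread between these libraries, which may be technical. Peak lists hold no RNA values, so the sorted cell type was not checked against marker genes here. The lists held 116539 to 122101 peaks and 110295334 to 113346236 called bp per library, and the number of reads behind them is unknown. The IgG control and input of the series were left out.

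The bases before the start of 7 genes with such a region are printed first, since CpG dinucleotides are where mammalian DNA is mostly methylated and these promoters differ widely in how many they hold. Each stretch is the 250 bases upstream of the RefSeq start on GRCm38 (GRCm38.p6), written 5′ to 3′ in the direction of transcription, with every CpG in capitals. Lrrc42 (chr4:107253534-107253783, minus strand) is shown because its region is the highest ranked one, among the 10 with the highest score ranks, whose core covers the whole promoter window of its gene. Homer3 (chr8:70282749-70282998, plus strand), a scaffold protein of synapses, and Celf5 (chr10:81482135-81482384, minus strand), an RNA-binding protein, stand for GC-rich promoters of intermediate CpG number. Ltb4r1 (chr14:55765712-55765961, plus strand), the leukotriene B4 receptor of neutrophils, has few CpG, and Fnip2 (chr3:79567680-79567929, minus strand), a partner of folliculin, has many. Sec23a (chr12:59012018-59012267, minus strand), a coat protein of vesicles leaving the endoplasmic reticulum, and Hpse (chr5:100719717-100719966, minus strand), the enzyme heparanase, are shown because the calls over their starts were among those with the smallest p for a length difference, in opposite directions.
Lrrc42: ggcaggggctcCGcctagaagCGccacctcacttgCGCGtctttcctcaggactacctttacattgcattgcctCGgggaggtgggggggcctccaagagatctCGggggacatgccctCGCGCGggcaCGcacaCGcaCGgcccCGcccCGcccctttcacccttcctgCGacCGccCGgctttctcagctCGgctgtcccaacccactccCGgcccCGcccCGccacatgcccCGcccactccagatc
Homer3: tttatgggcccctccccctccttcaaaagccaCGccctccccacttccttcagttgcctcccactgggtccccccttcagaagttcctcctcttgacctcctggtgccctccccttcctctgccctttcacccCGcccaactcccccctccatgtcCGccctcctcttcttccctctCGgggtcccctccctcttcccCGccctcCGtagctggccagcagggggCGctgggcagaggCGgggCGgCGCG
Celf5: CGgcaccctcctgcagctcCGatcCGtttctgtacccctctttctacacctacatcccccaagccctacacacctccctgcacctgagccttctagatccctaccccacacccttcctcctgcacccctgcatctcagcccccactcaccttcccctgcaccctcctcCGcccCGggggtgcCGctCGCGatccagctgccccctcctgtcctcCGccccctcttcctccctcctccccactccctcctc
Ltb4r1: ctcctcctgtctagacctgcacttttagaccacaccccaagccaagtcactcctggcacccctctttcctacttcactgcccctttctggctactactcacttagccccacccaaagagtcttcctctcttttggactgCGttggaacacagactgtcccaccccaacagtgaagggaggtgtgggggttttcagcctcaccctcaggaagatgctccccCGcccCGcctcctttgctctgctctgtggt
Fnip2: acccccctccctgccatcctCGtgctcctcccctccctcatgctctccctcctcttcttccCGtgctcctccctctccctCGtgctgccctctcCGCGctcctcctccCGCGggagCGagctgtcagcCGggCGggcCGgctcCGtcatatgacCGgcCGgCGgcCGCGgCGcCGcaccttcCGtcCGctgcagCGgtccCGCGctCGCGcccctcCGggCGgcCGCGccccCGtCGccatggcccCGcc
Sec23a: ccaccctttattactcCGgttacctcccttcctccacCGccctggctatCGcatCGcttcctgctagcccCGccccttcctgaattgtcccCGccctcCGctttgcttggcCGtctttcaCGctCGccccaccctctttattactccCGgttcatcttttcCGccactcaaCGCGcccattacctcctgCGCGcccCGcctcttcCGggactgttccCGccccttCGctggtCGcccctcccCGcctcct
Hpse: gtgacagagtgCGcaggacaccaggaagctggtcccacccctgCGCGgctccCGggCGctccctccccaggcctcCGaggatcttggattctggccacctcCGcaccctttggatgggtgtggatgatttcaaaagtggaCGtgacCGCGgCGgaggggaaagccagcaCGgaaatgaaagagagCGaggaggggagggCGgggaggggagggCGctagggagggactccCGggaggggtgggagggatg
The printed stretches hold 22 CpG at Lrrc42, 11 at Homer3, 9 at Celf5, 3 at Ltb4r1, 33 at Fnip2, 22 at Sec23a and 16 at Hpse. All 7 contain the GC box GGGCGG on 1 of the strands of the 300-base window that also takes in 50 bases after the start. The hexamer TGTGGT, the core letters bound by Runx proteins, was found in that window at Ltb4r1, and the E-box CACGTG at none of them.

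Borders of genes were not set apart from other places by how often a region was constant. Among merged autosomal regions under 2500 bp, 41.34% of the 5397 within 1 kb of a gene border were called in all 4 libraries, against 39.66% of 64903 in gene bodies and 38.71% of 99527 between genes. At gene borders 1479 regions were called in 1 library, 869 in 2 and 818 in 3. The constant ones touched 2275 of 20661 autosomal protein-coding genes (11.01%). Per chromosome this share ran from 7.72% on chromosome 13 to 14.31% on chromosome 18. It was 14.24% on chromosome 7, which held 277 of the regions. On chromosome 18 a single region lay within 1 kb of a border of 14 protocadherin genes (12 of the Pcdha set with Pcdhac1 and Pcdhac2), which share their last exons, so that 1 region stands for many genes there.

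The regions were 600 to 2489 bp wide, with a median of 1340 bp. Their median called length was 1081 and 1023 bp in flox replicates 1 and 2, against 1046 and 1019 bp in KO replicates 1 and 2. The bases called in all 4 libraries, here the core, made up a median of 748 bp or 56.94% of a region's width (quartiles 47.14 and 66.66%). Merging by overlap favours such sharing, and the core was not measured in other constant regions. Where the core lay within a region was not summarised. Between any 2 libraries the median Jaccard index, the shared over the total called bases of a region, was 0.749 to 0.757. It was 0.751 for the flox pair and 0.749 for the KO pair, beside 0.75 to 0.757 for the pairs across groups. Peak midpoints were 90.5 to 102.5 bp apart in the median. The regions at Arhgef1, Emilin1 and Mllt6 had no base called in all 4 libraries.

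The limits of the rule cut through a continuous range. The widest regions kept were at Dmkn (2489 bp) and Ssc5d (2488 bp), and those just too wide were at Emp3 (2513 bp) and Smim24 (2525 bp). By distance, Fbxo36 (1000 bp) and Calm3 (999 bp) were the last inside, and Cnga3 and Spata31d1a (both 1001 bp) the first outside. In all, 109 constant autosomal regions within 1 kb of a border were too wide.

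Constant regions were found more often at gene starts than at gene 3′ ends. RefSeq promoter entries gave the strand of 16456 of the genes, of which 1213 (7.37%) had a constant region within 1 kb of the start and 604 (3.67%) within 1 kb of the 3′ end. Of the regions, 1131 lay near a start and no 3′ end, 553 near a 3′ end and no start, 35 near both, and 512 near genes whose strand was not used. Both borders were marked in 80 genes (0.49%), and in 11 of these 1 region served both. The median span was 12365 bp for those 80 genes, 22734 bp for genes marked at the start, 16376.5 bp for genes marked at the 3′ end and 17279.5 bp for all genes with strand.

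The same order was seen in each library on its own, over all of its peaks and without the demand for 4 calls. Gene starts had a peak midpoint within 1 kb in 12.688% and 12.123% of genes in flox replicates 1 and 2, and in 11.765% and 12.682% in KO replicates 1 and 2. At 3′ ends the shares were 6.727% and 6.855% in flox and 6.381% and 6.411% in KO. The ratio of the first to the second was 1.83 ± 0.083 in flox and 1.91 ± 0.095 in KO (SD, n = 2 each; exact permutation test over libraries, two-sided, p = 0.667). At 3′ ends the KO values were both below the flox values (6.79% ± 0.090 and 6.40% ± 0.021, SD, n = 2 each; exact permutation test over libraries, two-sided, p = 0.333). At starts they overlapped (12.4% ± 0.40 and 12.2% ± 0.65, exact permutation p = 0.667). Over both borders, 3.394% and 3.35% of flox peaks and 3.234% and 3.285% of KO peaks had their midpoint within 1 kb (difference -0.112 percentage points, two-sided exact permutation p = 0.333). With 2 libraries against 2 no exact p can fall below 0.333.

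Base by base, called 5hmC was most frequent after gene starts and least frequent just before 3′ ends. The share of genes whose base was called in all 4 libraries was highest 700 bp after the start, at 3.81%, against a median of 2.50% at 3 to 5 kb on either side. It was lowest 200 bp before the 3′ end, at 0.80%, again against 2.50% at 3 to 5 kb. In single libraries the share at the first of these places was 7.25% and 6.68% in flox and 6.42% and 6.89% in KO, with medians of 4.98 to 5.36% at 3 to 5 kb. At the second it was 2.56% and 2.46% in flox and 2.18% and 1.98% in KO, with medians of 4.79 to 5.28%. The rise and the dip were thus present in all 4 libraries. Called bases include those of peaks that are wider than the rule allows or centred farther away.

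**Figure D1:**
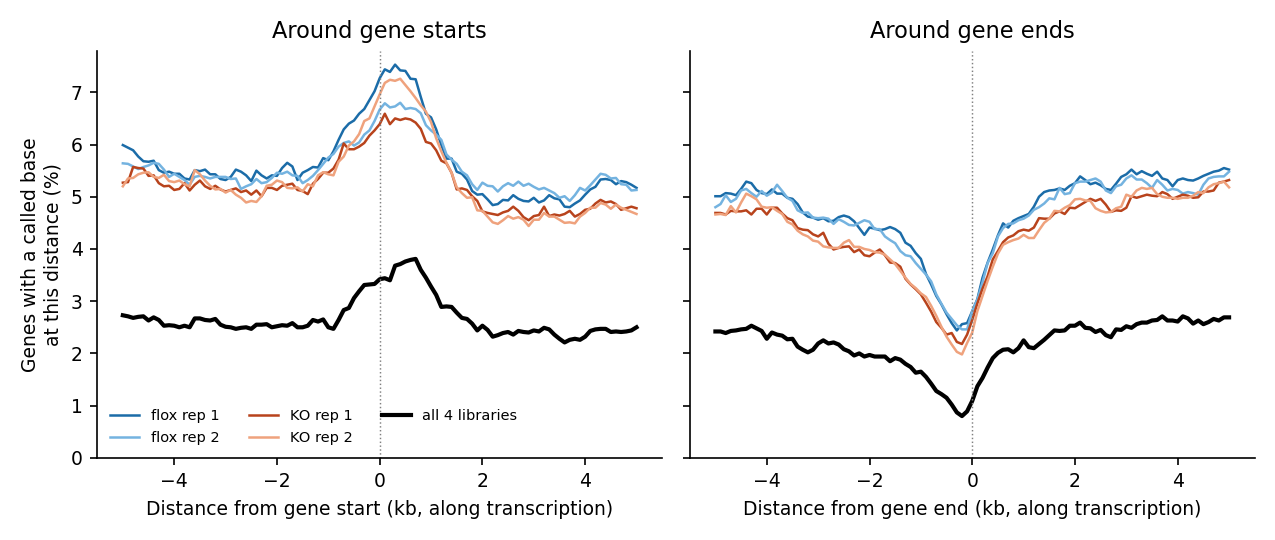
Share of genes (%) with a called base at each distance (kb, along transcription) from gene starts (left) and gene 3′ ends (right), for each of 4 libraries (thin lines) and for bases called in all 4 (thick line). All lines are raised around the start, beginning before it, and the thick line is at 3.42% at the start itself. All dip just before the 3′ end, where the thick line falls to 0.80%.

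Midpoints of the constant regions lay on both sides of starts and were fewest just before 3′ ends. Of 1221 pairs of a region and a start, 567 (46.44%) had the midpoint upstream and 654 (53.56%) downstream. In bins of 200 bp there were 148 from 400 to 200 bp before the start, 103 in the first 200 bp after it and 152 from 400 to 600 bp after it, so midpoints had a low next to the start where called bases had none. Of 607 pairs of a region and a 3′ end, 216 (35.58%) had it upstream and 391 (64.42%) beyond the gene. Of these 607 midpoints, the last 200 bp of genes held 19 (3.13%), and the stretch from 400 to 600 bp beyond held 91 (14.99%).

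Some regions sat between neighbouring genes. Of 136 regions near exactly 2 genes, 54 lay at a pair of starts, 19 at a pair of 3′ ends, 24 between a 3′ end and a start, and 39 near a gene whose strand was not used. The region shared by the starts of Lrrc42 and Hspb11, an intraflagellar transport gene, covered 2038 and 1979 bp in flox against 2286 and 2064 bp in KO. At the starts of Rnft2 and Spring1, a regulator of sterol sensing, 1206 and 1268 bp were called in flox and 1423 and 1251 bp in KO. Between the 3′ ends of Capns1, the small subunit of calpains, and Cox7a1, a subunit of cytochrome c oxidase, 1221 and 1201 bp were called in flox and 1509 and 1418 bp in KO. The lowest score percentile over the libraries was 99.61 at Lrrc42, 99.34 at Rnft2 and 87.79 at Capns1. The region between the 3′ end of Wdr6 and the start of P4htm, a prolyl hydroxylase, had 1649 and 1534 bp in flox against 1330 and 1094 bp in KO. The groups overlapped at the border shared by Sypl2 and Atxn7l2 (1178 and 1126 bp in flox, 997 and 1284 bp in KO). The same held between the 3′ ends of Ndufb7 and Tecr (1440 and 946 bp in flox, 1349 and 1166 bp in KO). They overlapped at Rnft2 too. At Lrrc42, Capns1 and Wdr6 both KO values lay on 1 side of both flox values, as was seen at 33.8% of all constant regions. None of these regions passed the test given below.

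Peak scores are given here as ranks within each list. The score, the authors' value, grows with the negative log10 of the peak's p-value and depends on depth. The regions had a median percentile of 73.76 and 72.98 in flox, against 71.67 and 72.97 in KO. For constant regions under 2500 bp in gene bodies the medians were 68.14 to 69.04, and between genes 65.91 to 67.68. In 610 regions (27.34%) all 4 peaks were above percentile 75 of their list, against 20.74% of the 64267 other constant regions of this width. All 4 peaks were above percentile 90 in 280 (12.55%, against 8.52%) and below percentile 25 in 6 (0.27%, against 0.46%). Ranks of the same region still moved between libraries, with a median range of 27.83 percentile points. Regions nearest to a start had median percentiles of 73.0 to 75.9 and those nearest to a 3′ end 68.2 to 70.8.

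**Figure D2:**
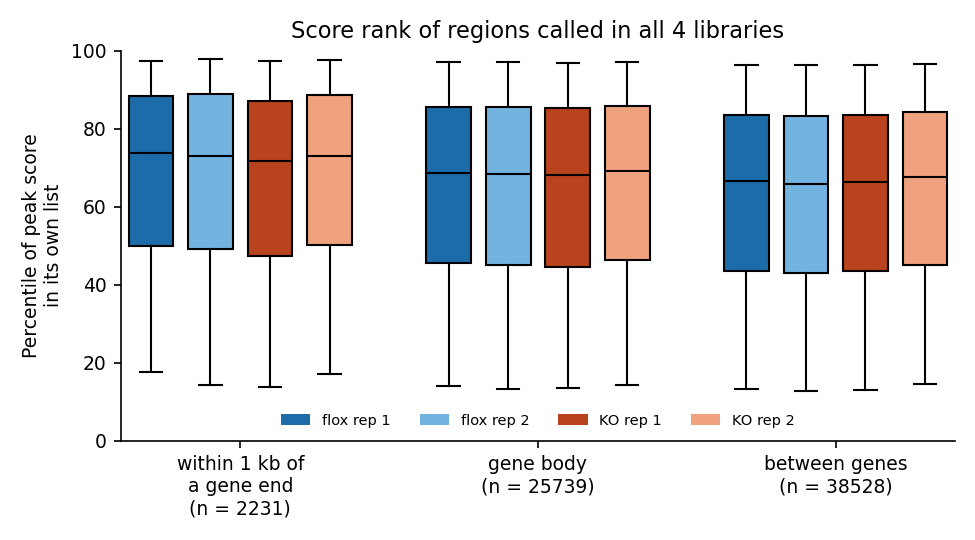
Percentile of the peak score within its own list (y axis, 0 to 100) for regions called in all 4 libraries and under 2500 bp, by place and library. Boxes are quartiles with the median, whiskers the 5th and 95th percentiles; medians at gene borders are 71.67 to 73.76, above those in gene bodies and between genes.

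The 10 regions with the highest lowest rank were led by Smarcd3, a subunit of the SWI/SNF chromatin remodelling complex. Its region (chr5:24622710-24624532), with the midpoint 835 bp inside the start, had 1815 and 1464 bp called in flox and 1789 and 1692 bp in KO, and ranked at the 99.92nd percentile or above in all lists. Cys1, a protein of the primary cilium, had a region 552 bp inside its start (chr12:24680334-24682334) with 1878 and 1720 bp in flox against 1988 and 1688 bp in KO. Both regions had overlapping lengths in the groups. At the 3′ end of Shq1, an assembly factor of H/ACA ribonucleoproteins, 1207 and 1595 bp were called in flox and 1496 and 1214 bp in KO (chr6:100570541-100572221). Sgpl1, the lyase that breaks down sphingosine 1-phosphate, had 1653 and 2203 bp in flox against 1410 and 1499 bp in KO at its start (chr10:61145985-61148187). Both KO values lay below both flox values there and at Lamc1, and above both at Lrrc42. Such separation was seen at 33.8% of all constant regions, and none of these differences passed the test given below. Lrrc42 was the fifth of the set. Lamc1, a laminin chain, had 1550 and 1299 bp in flox against 1274 and 703 bp in KO. Elmod3 had 1577 and 1727 bp in flox against 1266 and 1818 bp in KO, beyond its 3′ end. The others were at Rbm20, a regulator of splicing (926 to 1158 bp over the 4 libraries), Ripor1 (922 to 1628 bp) and the olfactory receptor gene Olfr279 (1601 to 1694 bp). In all, 6 of the 10 regions lay at starts, 2 at 3′ ends and 2 at genes whose strand was not used.

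Blood cell genes were compared by lists with the share of 11.01% over all protein-coding autosomal genes. Of 41 myeloid effector genes, 11 (26.83%) had a constant region at a border. Among these were Adgre1, Cd33, Cd68, Fcgr3, Hp, Itgam, Ncf1, Ncf4 and S100a9. Itgam encodes the integrin chain CD11b, and its region, 478 bp inside the start (chr7:128062488-128063749), had 1106 and 1179 bp in flox against 1107 and 1092 bp in KO. At Adgre1, the macrophage surface protein F4/80, the lengths were 1422 and 1240 bp in flox against 1733 and 1174 bp in KO (chr17:57357354-57359086). Groups overlapped at both genes. Ncf1 and Ncf4, which encode parts of the phagocyte oxidase, had lower ranks, with lowest percentiles of 40 and 19.9. At S100a9, a calcium-binding protein of neutrophils, the ranks ran from 2.8 to 60.6.

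Among 49 blood transcription factor genes, 7 (14.29%) had a region. Zfpm1, the GATA1 cofactor FOG1, had the highest ranked one, 394 bp before its start (chr8:122280651-122282273), with 1158 and 1463 bp in flox against 1105 and 1497 bp in KO. Erg, a stem cell factor of the ETS family, had a region at both borders. The one near its 3′ end (chr16:95359129-95360387) had 1181 and 1241 bp in flox against 1237 and 1055 bp in KO. The others were Cbfb, the partner of Runx proteins, Cebpe, Mecom, Runx2 and Stat3. At Cbfb the region was 997 and 443 bp in flox against 976 and 919 bp in KO, and its ranks ran from 6.1 to 97.2. Groups overlapped at Zfpm1, Cbfb and the 3′ region of Erg. Both KO calls were shorter than both flox calls at the start of Erg and at Cebpe. They were longer at Mecom, Runx2 and Stat3. Such separation was seen at 33.8% of all constant regions, and none of these regions passed the test given below.

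Cytokine receptor and JAK-STAT genes had a region in 7 of 44 (15.91%), Stat3 being in both lists. Il4ra, a chain of the interleukin 4 receptor, had 1396 and 1233 bp in flox against 1233 and 1260 bp in KO beyond its 3′ end (chr7:125579658-125581237). Il1r1, the interleukin 1 receptor, had 1388 and 1103 bp in flox against 910 and 1257 bp in KO inside its start (chr1:40222082-40223490). Il3ra, a receptor chain of the IL-3 given to the cultures, had 1058 and 1189 bp in flox against 795 and 862 bp in KO near its 3′ end, where the groups did not overlap and the difference did not pass the test. At Stat3 the groups did not overlap either, in the other direction, with 869 and 786 bp in flox against 968 and 1312 bp in KO. This difference did not pass the test. Separation in either direction was seen at 33.8% of all constant regions. Cbl, Socs2 and Stat4 made up the rest, with overlapping groups.

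Chromatin and DNA methylation genes had a region in 5 of 44 (11.36%). Hdac1, a histone deacetylase, had 1367 and 1348 bp in flox against 951 and 1399 bp in KO (chr4:129541749-129543194). Smug1, a DNA glycosylase that can remove oxidised pyrimidines, had 1449 and 1036 bp in flox against 1019 and 1117 bp in KO (chr15:103167224-103168672). Idh1, whose product makes the TET cosubstrate 2-oxoglutarate, Asxl3 and Cxxc4 also had one.

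Genes of other blood lineages had regions too. Lymphoid genes had a region in 6 of 32 (18.75%), erythroid, megakaryocyte and mast cell genes in 1 of 29 (3.45%, Car1, a carbonic anhydrase of red cells). Cd22, a B cell receptor, had 1518 and 1228 bp in flox against 1420 and 1177 bp in KO before its start (chr7:30880334-30881891). Lck, a kinase of T cells, had 1341 and 1607 bp in flox against 1059 and 546 bp in KO over its start (chr4:129572806-129574412). At Lck the groups did not overlap, as was seen at 33.8% of all constant regions. The log2 difference there of -0.93 (SE 0.34) had a limma adjusted p of 0.974. Of 39 Hox genes, 7 (17.95%) had a region, with Hoxa2 (1374 and 844 bp in flox, 930 and 601 bp in KO) and Hoxd3 (1480 and 1020 bp, 1444 and 1211 bp) ranked highest. A 5hmC call at a border does not measure expression, so list shares say nothing about which cells were present.

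Housekeeping genes were taken as 2 lists. Cytosolic ribosomal protein genes had a region in 1 of 75 (1.33%, Rpl19, with 810 and 874 bp in flox against 795 and 1008 bp in KO), and glycolysis genes in 2 of 21 (9.52%). These were Pkm, the pyruvate kinase of growing cells, and Ldha, a lactate dehydrogenase, whose region had 2186 and 2204 bp in flox against 1864 and 1898 bp in KO. Among families taken by the start of the symbol, olfactory receptors (Olfr) had a region in 22 of 1104 (1.99%) and vomeronasal receptors (Vmn) in 9 of 354 (2.54%). Serpin genes, inhibitors of proteases in the main, had one in 14 of 62 (22.58%), and Pcdh genes in 16 of 67 (23.88%), of which 14 share 1 region. Shares were 16.3% for Kcn, 12.5% for Krt, 12.16% for Gpr, 10.74% for Zfp, 10.2% for Col, 9.9% for Cyp and 9.84% for Slc genes. No gene had a symbol starting with Hist. List shares are descriptions with no test.

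Promoters inside the regions were richer in G and C than promoters as a whole. RefSeq gave 20062 promoter windows of 300 bases for 16437 genes, and 359 of them (327 genes) lay wholly in the core of a region. They held a median of 18 CpG, against 14 over all windows, and 64.0% against 57.0% GC. The observed over expected CpG number was 0.69 against 0.59. The GC box GGGCGG, on either strand, was in 69.64% of these windows and in 47.01% of all. TGTGGT was in 11.98% and 14.75%, and CACGTG in 6.69% and 7.89%. Whether GC content accounts for the share with the GC box was not tested.

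By CpG number the share of promoters in a core was highest in the middle of the range. It was 0.69% with 0 to 4 CpG in the window, 2.79% with 10 to 14, 3.16% with 25 to 29, 1.71% with 30 to 39 and 0.75% with 40 or more. For windows that only overlapped a region by 1 bp or more, the fall at high CpG number was smaller, from 7.81% with 25 to 29 to 6.05% with 30 to 39 and 5.53% with 40 or more. GC content moved with this: none of 1756 windows under 40% GC lay in a core, 4.19% of those from 65 to under 70% did, and 2.16% at 70% or more. At 60 to under 70% GC the share was 1.2% (3 of 250) with 0 to 9 CpG, 6.39% (82 of 1283) with 10 to 19, 2.93% (85 of 2903) with 20 to 29 and 1.29% (13 of 1008) with 30 or more. In this range of GC content the share was highest at intermediate CpG number. At 50 to under 60% GC it was not: the share was 1.86% with 0 to 9 CpG, 1.47% with 10 to 19, 0.68% with 20 to 29 and 0 of 12 windows with 30 or more. Homer3, with 19 CpG and 69.7% GC in its window, and Celf5, with 11 and 65.7%, printed above, have 10 to 19 CpG at 60 to under 70% GC.

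At 60 to under 70% GC single libraries had the same order from 10 CpG upwards. Under a peak of their own lay 15.28% and 13.56% of the windows with 10 to 19 CpG at 60 to under 70% GC in flox, and 13.48% and 13.64% in KO. With 30 or more CpG the shares were 3.87% and 3.57% in flox and 3.27% and 3.47% in KO. With 0 to 9 CpG they were 9.6 to 12.8%, so the low share of cores there was not matched by single libraries. Over the windows that only overlap a region by 1 bp or more, the shares were 11.07% with 10 to 19 and 5.26% with 30 or more, a ratio of 2.11 in place of 4.96. Over windows of any GC content, shares under a peak with 10 to 14 CpG were 8.57% and 8.87% in flox and 8.31% and 7.5% in KO. With 25 to 29 they were 7.76% and 6.93% in flox and 7.5% and 7.71% in KO. With 40 or more they were 5.82% and 1.97% in flox and 3.0% and 3.94% in KO, beside 2.64 to 2.91% with 0 to 4. Single libraries thus differed widely at 40 or more.

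**Figure D3:**
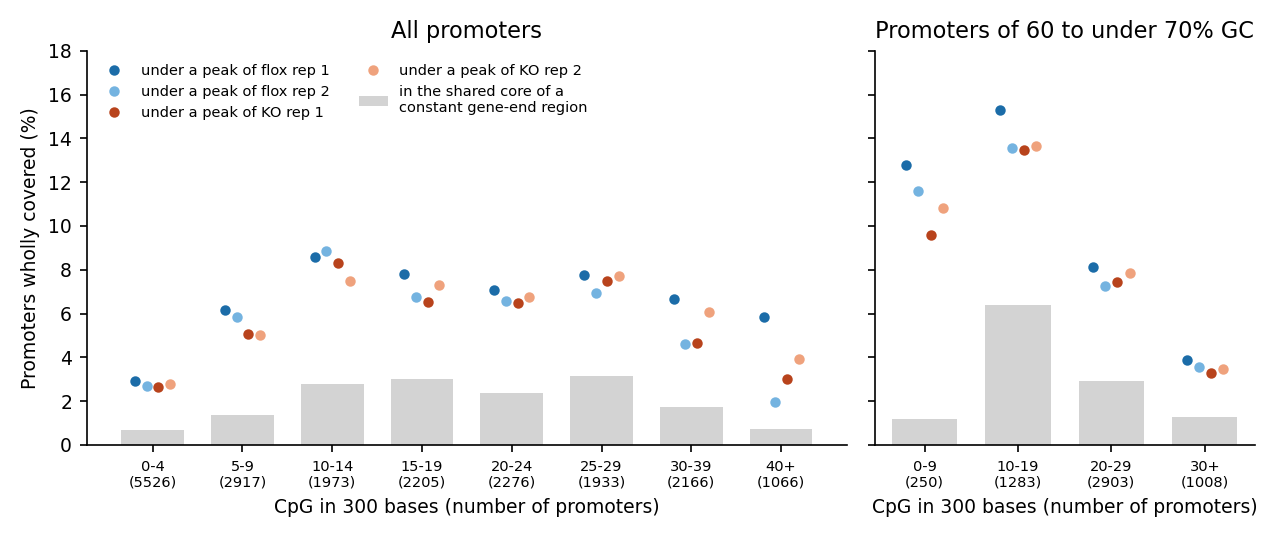
Share of 300-base promoter windows (%) lying wholly in the core of a constant gene-border region (bars) or under a peak of 1 library (points), by CpG number, for all windows (left) and those of 60 to under 70% GC (right), with the number of windows in parentheses. On the right the bar at 10 to 19 CpG is 6.39% and the bar at 30 or more is 1.29%.

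The region at the Homer3 promoter (lowest percentile 99.32) had 1456 and 1221 bp in flox against 1174 and 1108 bp in KO. At Celf5 it had 1385 and 1211 bp in flox against 1421 and 1222 bp in KO. The CpG-poor promoter of Ltb4r1 lay in a region of 2120 and 1966 bp in flox against 2328 and 2342 bp in KO. Both KO values lay above both flox values at Ltb4r1 and below both at Homer3, and the groups overlapped at Celf5. Such separation in either direction was seen at 33.8% of all constant regions, and none of these promoter regions passed the test given below. The promoter of Fnip2, with 44 CpG in its window, lay in a region of 1865 and 1986 bp in flox against 1270 and 1528 bp in KO.

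No difference in called length between KO and flox passed the test at these regions. limma was fitted to the log2 called length, scaled to the same total per library, of all 68363 constant autosomal regions, of which 0 (percent called 0.0) passed an adjusted p of 0.05. No gene-border region passed either, and the smallest adjusted p among them was 0.958. An unadjusted p under 0.05 was reached by 107 of them, 61 shorter and 46 longer in KO, or 4.80% against 4.83% of all constant regions (2.46 and 2.37% by direction). The split rested on single libraries, with 37 of 101 shorter in KO without flox replicate 1 and 82 of 114 without KO replicate 1. Both KO libraries lay on 1 side of both flox libraries at 742 (33.3%, against 33.8%). These shares are near those of all constant regions. The median log2 difference, KO minus flox, was -0.0019 at gene borders and 0.0023 over all constant regions, and 90% of the gene-border values lay between -0.56 and 0.50. Since a region must be called in all libraries, losses and gains of whole peaks cannot show here. Data were simulated with the means of the same 68363 regions and a spread smoothed over regions by their mean, not each region's own spread. On these the fit found 44.5% of regions changed by a log2 value of 1 and 0.5% of those changed by 0.5. Under this spread, smaller changes of length were thus not detectable with 2 libraries per group.

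**Figure D4:**
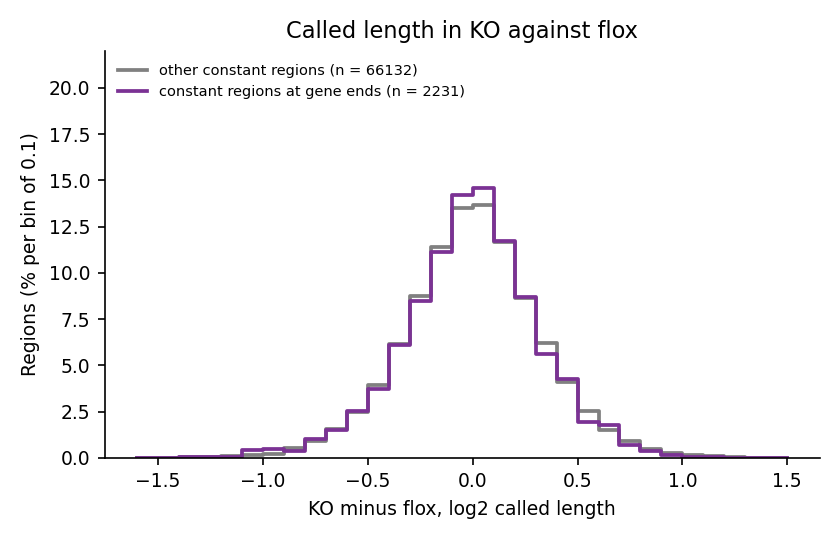
Share of regions (%, per bin of 0.1) by the log2 difference of called length, KO minus flox, for 2231 constant gene-border regions and 66132 other constant autosomal regions. Both curves are centred near 0, with 90% of the gene-border values between -0.56 and 0.50.

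The regions with the smallest p in each direction, none of which passed, show the size of the differences seen. Cyp2ab1, a cytochrome P450 gene, had 2396 and 1829 bp in flox against 1076 and 1000 bp in KO inside its start (chr16:20323261-20325701, log2 difference -0.999, SE 0.21, limma adjusted p = 0.958). Hpse had 1370 and 1250 bp in flox against 499 and 623 bp in KO over its start (log2 difference -1.22, SE 0.28, limma adjusted p = 0.974). The ranks at Hpse went the other way, with score percentiles of 9.95 and 19.25 in flox but 84.85 and 48.19 in KO: the KO peaks were shorter and ranked higher. Pde9a, a cyclic GMP phosphodiesterase, had 2099 and 1794 bp in flox against 891 and 1170 bp in KO. Mrgprb2, a receptor of mast cells, had 1061 and 1125 bp in flox against 424 and 555 bp in KO beyond its 3′ end.

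In the other direction, Sec23a had 578 and 493 bp in flox against 1011 and 1357 bp in KO before its start (log2 difference 1.15, SE 0.31, limma adjusted p = 0.974). Here too the ranks were opposite, at 81.5 and 85.55 in flox and 45.44 and 46.57 in KO. Adgrl1, an adhesion receptor, had 606 and 534 bp in flox against 1193 and 1135 bp in KO before its start. Gtpbp6, a GTP-binding protein, had 937 and 940 bp in flox against 1749 and 1547 bp in KO, and Pappa, a protease of insulin-like growth factor binding proteins, 972 and 820 bp in flox against 1448 and 1779 bp in KO. The groups did not overlap at these 8 regions, which was a condition of their choice. Unlike at Hpse and Sec23a, score percentiles moved with length at Cyp2ab1 (59.55 and 70.61 in flox, 5.56 and 23.04 in KO). They did so too at Gtpbp6 (26.77 and 21.45 in flox, 52.45 and 74.15 in KO). The same held at Pappa (25.14 and 27.23 in flox, 93.95 and 60.28 in KO). At Adgrl1 they were 75.42 and 70.48 in flox and 80.12 and 78.48 in KO. Percentiles of the groups overlapped at Pde9a and Mrgprb2. The limma adjusted p was 0.958 at Cyp2ab1 and 0.974 at the other 7.

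**Figure D5:**
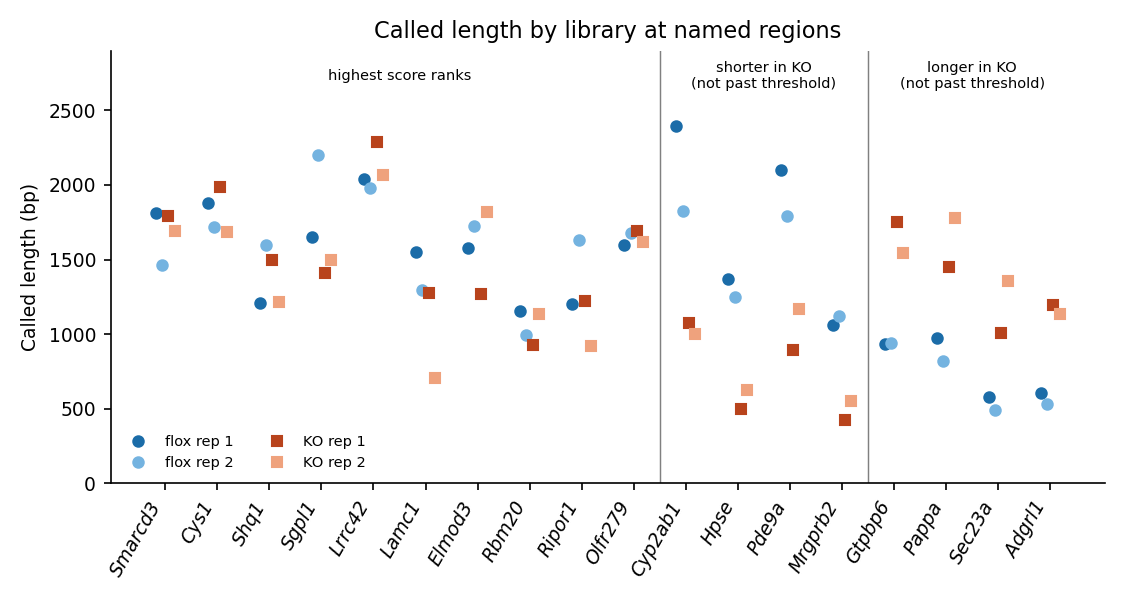
Called length (bp) in each of 4 libraries (circles flox, squares KO) at the 10 regions with the highest score ranks and at the 8 regions with the smallest p for a shorter or longer call in KO. At Hpse both KO squares (499 and 623 bp) lie below both flox circles, and at Sec23a both lie above, without passing the threshold.

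Medians by kind of border and by score rank were close to 0. The median log2 difference was -0.004 for the 1145 regions nearest to a start, -0.02 for the 557 nearest to a 3′ end and 0.01 for the 610 above percentile 75 in all lists. Over the gene lists, the regions of 11 myeloid effector genes had differences of -0.27 to 0.51 with a median of 0.06. The 8 regions of blood transcription factor genes had the highest median of the lists, 0.185 (-0.26 to 0.53), and none of them had an unadjusted limma p under 0.05. Those of Hox genes ran from -0.51 to 0.59, the highest at Hoxb13, where 1025 and 1008 bp were called in flox and 1633 and 1400 bp in KO. Lck, 1 of 7 regions of lymphoid genes, and Hoxb13, 1 of 7 of Hox genes, had an unadjusted limma p under 0.05. No region of the other lists did. Over all constant regions the share with such a p was 4.83%, and the limma adjusted p was 0.974 at both genes.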

How the data were processed

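The 4 lists of 5hmC peaks, 2 flox and 2 KO libraries grouped by the sample titles, were used as deposited. Named in the submitters' processing notes are the tools Bowtie, CASAVA 1.8 and MACS 1.4 and the build GRCm38 (mm10). Settings and the control library were not given in the sources used here. Per the labels, these libraries had 14 PCR cycles and ran in lane 3. Each deposited score equalled 10 times the negative log10 of its deposited p-value to within 0.02, and the lowest was 50. Both are the authors' values for a peak within its list and served only to rank or filter. Read depth is unknown, so no interval is given for counts of reads.

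Peaks sharing 1 bp were merged, and the rule described above chose the regions. Genes, strand and promoter windows came from RefSeq tables on GRCm38.p6, matched by symbol or gene ID. Coordinates are counted from 1. Called length was tested by limma 3.58.1 in R 4.3.3 (robust, with trend, Benjamini-Hochberg adjustment, threshold 0.05), and library values with two-sided exact permutation tests. On simulated data of 68363 regions with 200 changed, limma made 4 false calls at a log2 change of 1 and 0 when nothing was changed. Python 3.11.15, pandas 2.3.3, numpy 2.4.6, scipy 1.17.1 and matplotlib 3.10.9 were used.

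The regions, gene lists and rules were chosen with earlier results of these data known. Named were the 10 regions with the highest lowest score percentile, up to 2 genes per gene list by the same value, the 4 regions per direction with the smallest p and groups that did not overlap (none passed), and the 2 just inside and outside each limit, passing over Gm-number and Rik symbols. Other list genes, shared regions and the printed promoters were chosen after their values were seen. Some list genes are not reported here. Alternatives were other score, width, distance and cover limits, scaling, filters, a pseudocount of 500 bp, a block for the replicate number, and fits and counts with 1 library fewer. The comparison of starts with 3′ ends, the promoter ratio and 2 narrower ways to match family symbols were added after seeing the data.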

Additional observations from a re-analysis of the deposited data

How the results depend on the processing

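The number of regions followed the limits set. It was 1071 with peaks scored at least 100, 983 with only the 50000 top peaks per library, 1176 within 500 bp and 4106 within 2 kb of a border, against 2231. The ratio of the share of starts to the share of 3′ ends with a region, 2.01, was 2.38, 2.52, 2.70 and 1.52 in these settings and 1.79 with a width under 1500 bp. Asking for scores above percentile 90 in place of 75 left 280 of 610 regions. Leaving out each library gave 2448 to 2485 regions, ratios of 1.92 to 2.04, median log2 differences of -0.0218 to 0.0176 and differences in the share of peaks at borders of -0.138 to -0.087 percentage points. limma called 0 gene-border regions in all 12 settings, with 95 to 117 at an unadjusted p under 0.05 where the score limit was not used and 52 of 1071 where it was. Their smallest adjusted p ran from 0.403 to 0.974. With a replicate block there were 0 calls. The differences between replicates in flox and in KO had a correlation of -0.03 over the regions (Pearson's r across regions). Called lengths alone cannot tell whether libraries of the same replicate number shared a culture or preparation. The block left 117 at an unadjusted p under 0.05. The median log2 difference stayed near 0 and took either sign. Of gene-border regions at an unadjusted p under 0.05, the shorter in KO were 61 of 107, 37 of 101 without flox replicate 1, 48 of 98 without flox replicate 2, 82 of 114 without KO replicate 1 and 60 of 102 without KO replicate 2. Jaccard indices, midpoint bins and gene lists other than families had no alternative. With a digit required after the prefix, the share with a region was 20% of Pcdh, 13.21% of Krt and 11.9% of Col genes. Of the 8 regions named for their length, 7 gave no value with the score limit. The unknown read depth and 2 libraries per group limit all comparisons.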
